A study of Mus musculus with 10 samples.

Results

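The dependence of the lipopolysaccharide (LPS) response on Atf3 was measured in bone marrow-derived macrophages as the response difference of each gene. It is the LPS response of Atf3-/- cells (mean with LPS minus mean without) minus the LPS response of wild type cells. The members were all rows of the deposited table except 4 that the choice of members leaves out, which gave 16856 of 16860 genes, each a probeset that stands for 1 Ensembl gene. The table came from Affymetrix Mouse Genome 430 2.0 arrays, which carry short oligonucleotide probes, with total RNA as the starting material.

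There were 10 arrays in 4 groups. Wild type macrophages and Atf3-/- macrophages without LPS had 3 arrays each, and each genotype with LPS had 2 arrays. The LPS dose was 10 ng/mL and the exposure 4 h. All groups were labelled as female C57BL/6J mice of 8 to 12 weeks, and all cells had been grown from femoral marrow in recombinant human macrophage colony-stimulating factor. Whether each array bears out the labelled sex was not tested. The 4 rows left out differed widely between arrays of the same Atf3-/- group, as described below. Arrays with the same label were therefore not alike in these rows. The labels do not say how Atf3 was disrupted, whether the mutation was limited to a cell type, or whether replicate arrays trace back to separate animals or separate dishes. p-values therefore speak to array-to-array spread, an unknown part of which could be technical.

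LPS, the main glycolipid on the surface of Gram-negative bacteria, is sensed by Toll-like receptor 4 with its partners MD-2 and CD14. The receptor signals through the adaptors MyD88 and TRIF to NF-kB, MAP kinases and interferon regulatory factors, and interferon beta made by the cells then induces a further wave of genes. ATF3 is a basic leucine zipper transcription factor of the ATF/CREB family. Its own gene is switched on when Toll-like receptors are engaged, and in macrophages it is known as a brake on inflammatory genes. A response difference can come about in either of 2 states. The genotypes may already differ without LPS, or they may differ once LPS has acted. The response difference of a gene is by definition the genotype difference with LPS minus the genotype difference without LPS.

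The deposited rows carry Ensembl IDs, and 0 of them could be paired with a gene symbol from the sources used here. Genes are therefore identified by ID, with no role given, and the level of Atf3 itself, the macrophage markers and the markers of other cells were not analysed here. The 4 rows left out were each high in 5 arrays and low in the other 5, with no value between. By the first of them, ENSMUSG00000086503, the 3 wild type arrays without LPS, 1 of 3 Atf3-/- arrays without LPS and 1 of 2 Atf3-/- arrays with LPS were high. Both wild type arrays with LPS were low. All 4 rows split the arrays into the same 2 sets, compared without regard to which set was high. The high and low states named below are those of the first row. What the state is was not tested, nor whether the labels hold for each array. In wild type cells this state cannot be told apart from LPS. A second fit therefore added the state of each array as a term, and its values stand beside the results below as those of the state-adjusted fit. That fit learns the state's effect from the Atf3-/- arrays and takes it to be equal in wild type.

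A response difference was called for 1020 genes, 6.05% of those tested, at an adjusted p under 0.05 (limma, Benjamini-Hochberg over the 16856 genes). It was below 0 in 613 genes (3.64% of those tested) and above 0 in 407 (2.41%). Of the 613 genes below 0, 412 rose with LPS in wild type, 64 fell and 137 were not called there, where 17.8% of all genes tested rose and 23.5% fell. In Atf3-/- 231 of the 613 rose, 242 fell and 140 were not called, where 16.5% of all genes tested rose and 24.6% fell. Of the 407 genes above 0, 30 rose in wild type, 330 fell and 47 were not called, and in Atf3-/- 98 rose, 192 fell and 117 were not called. Both responses are parts of the contrast that called the genes, so these counts describe them and test nothing. In 1020 of the 1020 genes the differences between single arrays with and without LPS did not overlap between the genotypes, a pattern that 21.9% of all genes tested showed. The genes were called from the same arrays, a choice that favours this pattern, so this count too tests nothing. The median response difference was 0.02 on the log2 scale over all genes tested and its median absolute size was 0.20, against a median absolute size of 0.89 in the 1020 genes. A difference of at least 2-fold was found in 387 of them and one of at least 4-fold in 24. The balance of directions depended on scaling, since quantile normalization gave 524 genes above 0 and 507 below. In the state-adjusted fit 133 genes were called, 97 below 0 and 36 above, or 0.789% of those tested. Of these, 121 were among the 1020. The fitted sign of the response difference was the same in that fit for 1020 of the 1020 genes and for 13951 of the 16856 tested, while 899 of the 1020 were no longer called. Since the state coincides with LPS in wild type, the added term also leaves this contrast less precisely estimated. How far the lost calls reflect lower precision or smaller differences was not tested.

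In these genes, as over all genes tested, a genotype difference was called more often without LPS than with it. Without LPS the genotypes differed in 616 of the 1020 genes (60.4%), and with LPS in 295 (28.9%). Split into classes, 559 genes differed between the genotypes without LPS but were not called with LPS, and 238 differed with LPS but were not called without it. Both differences were called in 57 genes and neither in 166. Over all genes tested 12.8% were called without LPS and 3.93% with LPS. Since both differences are parts of the contrast that called the 1020 genes, these shares describe the genes and test nothing. The parts also differ in precision, because 3 arrays per genotype stood behind the first and 2 behind the second. When replicates 1 and 2 of each group were used, so that both rested on equal numbers of arrays, 351 genes were called, 175 of them in the class without LPS and 119 in the class with LPS. Without LPS both wild type arrays of that subset were in the high state and both Atf3-/- arrays in the low state. The genotype difference without LPS therefore cannot be told apart from the state there. With LPS only Atf3-/- replicate 2 was in the high state. In the state-adjusted fit the classes held 73 and 42 genes, both differences were called in 18, and 0 had neither.

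**Figure D1:**
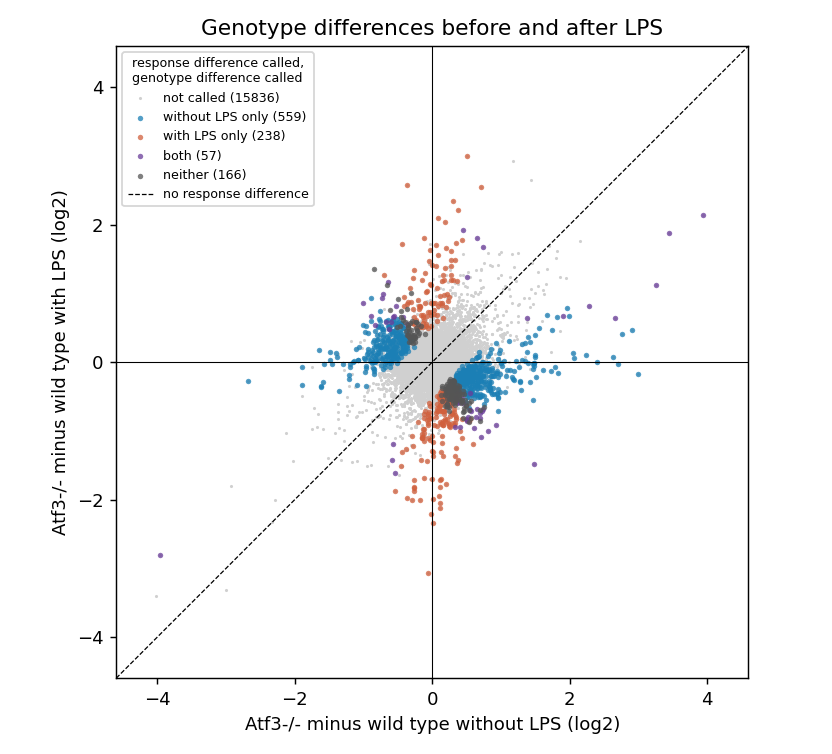
Each point is 1 of 16856 genes, placed by the log2 difference Atf3-/- minus wild type without LPS (horizontal) and with LPS (vertical). Grey points were not called for the response difference, and coloured points are the 1020 called genes by the state in which the genotype difference was called. The 559 genes called without LPS only lie along the horizontal axis and the 238 called with LPS only along the vertical axis, on either side of the dashed line of equal differences.

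By size alone the division was less uneven. The genotype difference was larger in absolute value without LPS in 562 of the 1020 genes and larger with LPS in 458. This order turned when Atf3-/- LPS replicate 1 was left out (536 larger without LPS, 828 larger with LPS) and when wild type LPS replicate 2 was left out (383 and 544). The class called without LPS only outnumbered the class called with LPS only in each of the 19 alternative settings. Among the 50 largest response differences below 0, 19 genes belonged to the class without LPS, 23 to the class with LPS and 8 to both. Among the 50 largest above 0 the numbers were 18, 21 and 7, with 4 genes called in neither state.

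The class that differed without LPS only fell into 2 mirror patterns. In 311 genes the Atf3-/- level was higher without LPS, by a median of 0.65 on the log2 scale, and after LPS it was lower by a median of 0.21. Of these 311 genes, 210 rose with LPS in wild type, where 17.8% of all genes tested rose, and 122 rose in both genotypes. The responses are parts of the contrast that called the genes, so such counts describe the class and test nothing. For the 122, the median log2 level without LPS was 6.80 in wild type and 7.78 in Atf3-/-, and with LPS it was 10.18 and 10.07. The class was chosen by a difference called without LPS and not called with LPS, so this order of levels follows from the choice and does not show that the levels with LPS are alike. Of the 559 genes of the class, 483 had a fitted genotype difference of opposite sign with LPS. In 346 the arrays of the genotypes did not overlap with LPS, a pattern that 6906 of the 16856 genes tested showed. In another 248 genes the Atf3-/- level was lower without LPS, by a median of 0.64. Of the 248, 224 fell with LPS in wild type, where 23.5% of all genes tested fell. Among the 224, 116 fell in both genotypes, 92 were not called in Atf3-/- and 16 rose there. In the 116 the median log2 level without LPS was 8.54 in wild type and 7.93 in Atf3-/-, and with LPS it was 6.66 and 6.97.

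**Figure D2:**
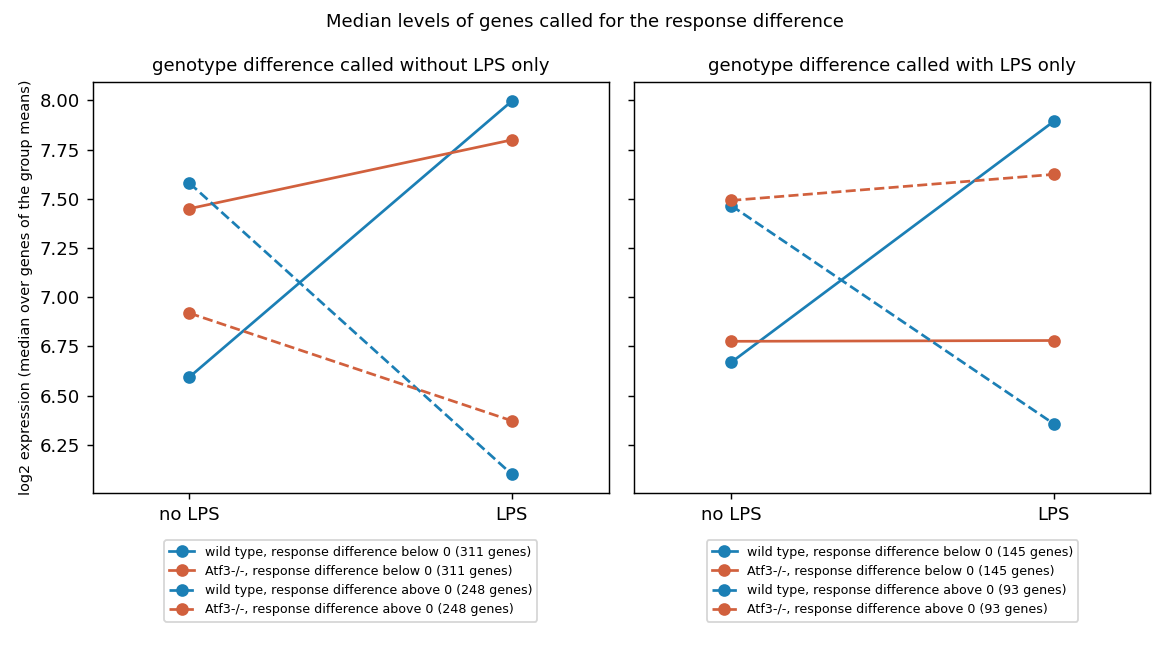
Median log2 level over genes, without and with LPS, in wild type (blue) and Atf3-/- (orange), for called genes with a response difference below 0 (solid) and above 0 (dashed). On the left, where the genotype difference was called without LPS only (311 and 248 genes), the median levels of the genotypes are farther apart without LPS. On the right, where it was called with LPS only (145 and 93 genes), they are farther apart with LPS; both shapes follow from the calls by which the genes were sorted.

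ENSMUSG00000024675 had the largest response difference below 0, and it arose before LPS. Its log2 level in wild type was 4.24, 4.28 and 4.13 without LPS and 11.20 and 11.07 with LPS. In Atf3-/- it was 7.04, 7.02 and 7.56 without LPS and 11.30 and 10.63 with LPS. The genotypes did not overlap without LPS and overlapped with LPS. LPS raised the gene 121-fold in wild type and 13.5-fold in Atf3-/-, a response difference of -3.16 (SE 0.28, limma adjusted p = 7.91e-04). The genotype difference was 2.99 without LPS (SE 0.18, adjusted p = 2.80e-06) and -0.17 with LPS (SE 0.22, adjusted p = 0.804). In the state-adjusted fit the response difference was -3.18 (adjusted p = 0.00674).

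ENSMUSG00000000204 showed the same order of levels. It lay at 5.19, 5.55 and 4.59 in wild type without LPS and at 8.09, 7.96 and 7.99 in Atf3-/- without LPS. With LPS it reached 10.95 and 10.93 in wild type and 11.73 and 11.08 in Atf3-/-. The genotypes were far apart without LPS and close with LPS, with the Atf3-/- arrays above the wild type arrays in both states. The genotype difference was 2.90 without LPS (SE 0.21, limma adjusted p = 1.64e-05) and 0.46 with LPS (SE 0.26, adjusted p = 0.448), and the response difference was -2.44 (SE 0.34, adjusted p = 0.00325). The response difference missed the threshold in the state-adjusted fit, at -2.09 (adjusted p = 0.0550).

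Repressed genes with the opposite start are shown by ENSMUSG00000022235. Its log2 level was 6.05, 6.26 and 5.81 in wild type without LPS and 4.08 and 4.26 with LPS. In Atf3-/- it was 4.05, 3.98 and 4.39 without LPS and 4.01 and 4.20 with LPS. Only the wild type arrays without LPS were high, and the other 3 groups overlapped. LPS lowered the gene 3.66-fold in wild type, while the Atf3-/- response was -0.04 on the log2 scale (SE 0.15, limma adjusted p = 0.849). The response difference was 1.83 (SE 0.22, adjusted p = 0.00193), and 1.49 in the state-adjusted fit (adjusted p = 0.0280).

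ENSMUSG00000049723 also started lower in Atf3-/-, with a wider spread. It lay at 11.77, 11.71 and 11.35 in wild type without LPS and at 9.16 and 9.38 with LPS. In Atf3-/- it lay at 8.87, 8.19 and 9.72 without LPS and at 8.47 and 9.50 with LPS. The Atf3-/- arrays at 9.72 and 9.50 were in the high state, and those at 8.87, 8.19 and 8.47 were in the low state. Every wild type array without LPS was in the high state. As in the previous gene, the wild type arrays without LPS stood above all others. The genotype difference without LPS was -2.69 (SE 0.33, limma adjusted p = 6.08e-04) and the response difference was 2.41 (SE 0.53, adjusted p = 0.0236). In the state-adjusted fit the genotype difference without LPS was -1.94 (limma adjusted p = 6.36e-04). The response difference was 1.10 in the state-adjusted fit (adjusted p = 0.185), and it also missed the threshold without wild type LPS replicate 1 (2.30, adjusted p = 0.0972) and without Atf3-/- LPS replicate 2 (1.89, adjusted p = 0.0836).

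The class that differed with LPS only also had 2 patterns. In 145 genes the response difference was below 0, and the Atf3-/- level with LPS was lower by a median of 0.86 on the log2 scale, while without LPS it was higher by a median of 0.12. In 106 of these 145 genes LPS raised the wild type level, against 17.8% of all genes tested, and 68 rose in both genotypes. In the 68, the median log2 level without LPS was 5.71 in wild type and 5.69 in Atf3-/-, and with LPS it was 8.49 and 6.90. A further 34 rose in wild type and were not called in Atf3-/-. In 93 genes the response difference was above 0, and the Atf3-/- level with LPS was higher by a median of 0.91. Of these 93, 38 fell in both genotypes, 24 rose in both and 18 rose in Atf3-/- without being called in wild type. Over all genes tested 17.8% rose and 23.5% fell in wild type, and 16.5% rose and 24.6% fell in Atf3-/-. The responses are parts of the contrast that called the genes, so these counts too test nothing.

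ENSMUSG00000018500 was induced in wild type and far less in Atf3-/-. Its log2 level without LPS was 4.08, 4.05 and 4.18 in wild type and 4.07, 4.07 and 3.97 in Atf3-/-. With LPS it was 8.15 and 7.68 in wild type and 5.44 and 4.26 in Atf3-/-. The genotypes overlapped without LPS and were apart with LPS. The array at 5.44 was in the low state, like both wild type arrays with LPS, and the array at 4.26 was in the high state. With the array at 5.44 alone, the genotype difference with LPS was -2.47. LPS raised the gene 14.1-fold in wild type and 1.76-fold in Atf3-/-, and the genotype difference with LPS was -3.06 (SE 0.28, limma adjusted p = 1.78e-04). The response difference was -3.00 (SE 0.37, adjusted p = 0.00221), and -2.34 in the state-adjusted fit (adjusted p = 0.0261).

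ENSMUSG00000050737 behaved alike with little spread in Atf3-/-. Without LPS it lay at 4.44, 4.55 and 4.51 in wild type and at 4.52, 4.51 and 4.49 in Atf3-/-. With LPS it lay at 8.51 and 7.79 in wild type and at 5.85 and 5.79 in Atf3-/-. The groups overlapped before LPS and did not overlap after it. LPS raised it 12.6-fold in wild type and 2.48-fold in Atf3-/-, and the response difference was -2.34 (SE 0.23, limma adjusted p = 7.91e-04). In the state-adjusted fit it was -2.30 (adjusted p = 0.0118).

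ENSMUSG00000038508 was strongly repressed in wild type and far less in Atf3-/-. It lay at 9.73, 9.71 and 9.76 in wild type without LPS and at 6.65 and 6.37 with LPS. In Atf3-/- it lay at 10.44, 10.22 and 10.06 without LPS and at 8.87 and 10.15 with LPS. The wild type arrays with LPS were the low ones. Without LPS the Atf3-/- arrays also lay above the wild type arrays, by a smaller margin, and the Atf3-/- arrays with LPS differed by more than those of any other group. The array at 8.87 was in the low state, like both wild type arrays with LPS, and the array at 10.15 was in the high state. With the array at 8.87 alone, the genotype difference with LPS was 2.36. LPS lowered the gene 9.34-fold in wild type and 1.66-fold in Atf3-/-. The genotype difference was 0.51 without LPS (SE 0.24, limma adjusted p = 0.208) and 3.00 with LPS (SE 0.30, adjusted p = 2.68e-04), and the response difference was 2.49 (SE 0.39, adjusted p = 0.00562). In the state-adjusted fit the response difference was 2.03 (adjusted p = 0.0798).

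ENSMUSG00000048806 had the largest response difference above 0. Its log2 level was 4.31, 4.71 and 4.87 in wild type without LPS and 4.85 and 4.90 with LPS. In Atf3-/- it was 4.08, 4.48 and 4.21 without LPS and 6.53 and 8.38 with LPS. Both Atf3-/- arrays with LPS were above all others, with a spread of 1.31 on the log2 scale (SD, n = 2). The array at 6.53 was in the low state, like both wild type arrays with LPS, and the array at 8.38 was in the high state. With the array at 6.53 alone, the genotype difference with LPS was 1.66. LPS raised the gene 9.21-fold in Atf3-/-, while the wild type response was 0.25 on the log2 scale (SE 0.39, limma adjusted p = 0.653). The genotype difference was -0.37 without LPS (SE 0.35, adjusted p = 0.538) and 2.58 with LPS (SE 0.42, adjusted p = 0.00550). The response difference was 2.96 (SE 0.55, adjusted p = 0.0117). It missed the threshold in the state-adjusted fit (2.08, adjusted p = 0.150), without wild type LPS replicate 1 (2.93, adjusted p = 0.0534) and with replicates 1 and 2 of each group (2.81, adjusted p = 0.0627).

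**Figure D3:**
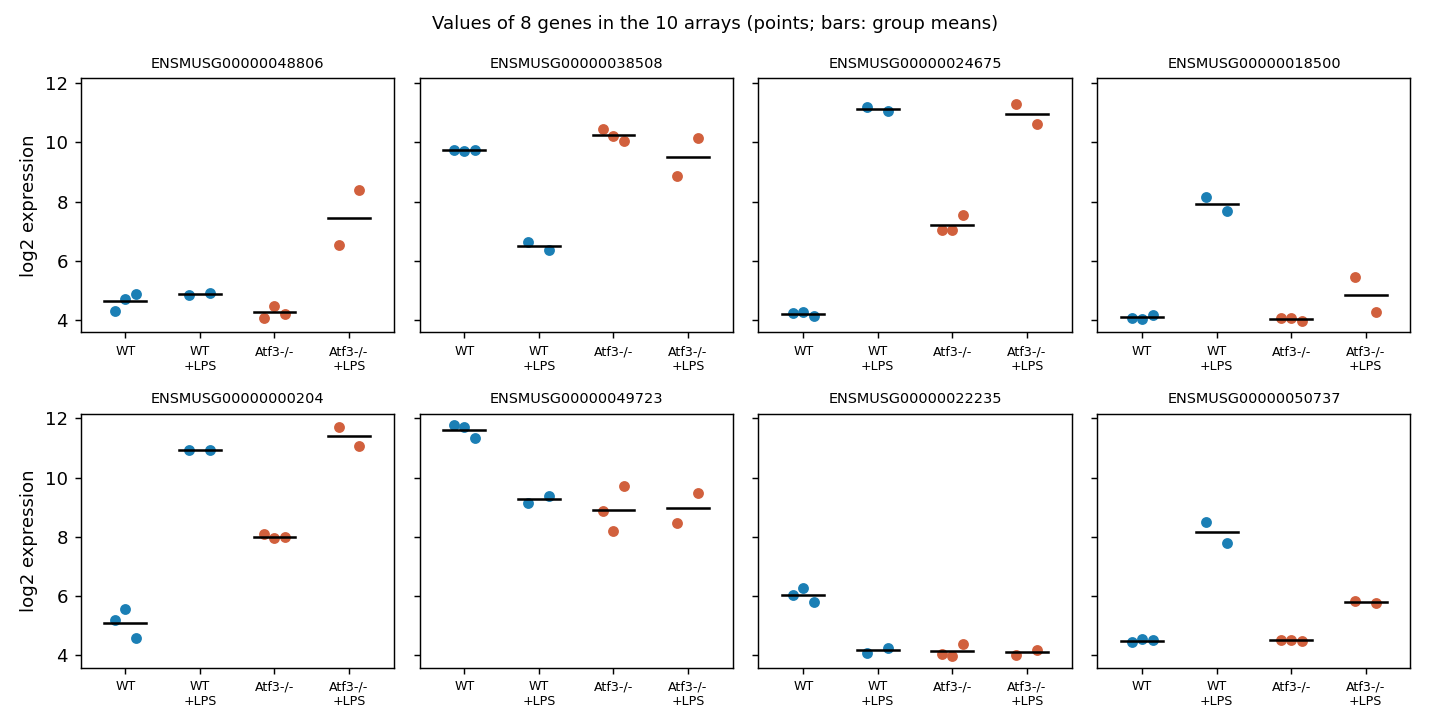
log2 expression of 8 genes in each of the 10 arrays, by group (points, wild type blue and Atf3-/- orange), with the group mean as a bar. In ENSMUSG00000024675, ENSMUSG00000000204, ENSMUSG00000049723 and ENSMUSG00000022235 the group means of the genotypes are farther apart without LPS, and in the other 4 genes they are farther apart with LPS.

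In 57 genes the genotypes differed in both states. The difference changed sign in 42 of them, with 28 higher in Atf3-/- without LPS and lower with LPS, and 14 lower and then higher. In 11 genes the Atf3-/- level was higher in both states, and in 4 it was lower in both. The genes were called for the difference of these parts, a choice that favours opposite signs, so the counts test nothing. The response was smaller in Atf3-/- in 30 of the 57, larger in 9 and opposite in fitted direction in 18. In the state-adjusted fit 24 of the 57 were called in the same direction, against 60 of the 559 genes that differed without LPS only, 36 of the 238 that differed with LPS only and 1 of the 166 that differed in neither state.

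In the 166 genes called in neither state the median absolute genotype difference was 0.30 without LPS and 0.46 with LPS. The response difference was below 0 in 119 of them, with a median genotype difference of 0.30 without LPS and -0.46 with LPS. In the other 47 the medians were -0.32 and 0.46. Where neither part is called, their difference can hardly be called unless the parts have opposite signs. These signs therefore follow largely from the choice of genes and test nothing.

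Genes were also sorted by the fitted signs and sizes of the 2 responses. In the class that differed without LPS only, the response had the same direction and was smaller in Atf3-/- in 310 of 559 genes, was larger in 66 and was opposite in fitted direction in 183. In the class that differed with LPS only the numbers were 125, 56 and 57 of 238. Opposite responses that were called in both genotypes numbered 38 of the 559 and 8 of the 238. Whether the classes differ in these proportions was not tested.

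The share of genes called rose with the level of the gene. Among the 3372 genes with the lowest mean expression, up to a log2 level of 3.82, 0.712% were called for the response difference. Among the 3371 with the highest, from 7.83 upwards, 11.1% were. The genotype difference without LPS was called in 2.67% of the former and 22.2% of the latter, and that with LPS in 0.415% and 7.24%. The arrays' values ran from 2.26 to 14.23, and values near the lower end carry background signal, so a response that starts there depends on the background correction.

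Single arrays weighed on these counts. Without wild type LPS replicate 1 the response difference was called for 296 genes, 183 of them in the class without LPS only and 74 in the class with LPS only. Without Atf3-/- LPS replicate 2 the counts were 506, 311 and 111. Without Atf3-/- LPS replicate 1 they were 1364, 595 and 417. Leaving out an unstimulated array gave between 535 (Atf3-/- replicate 2) and 765 genes (wild type replicate 2), with 614 and 585 without Atf3-/- replicate 3 and wild type replicate 1.

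**Figure D4:**
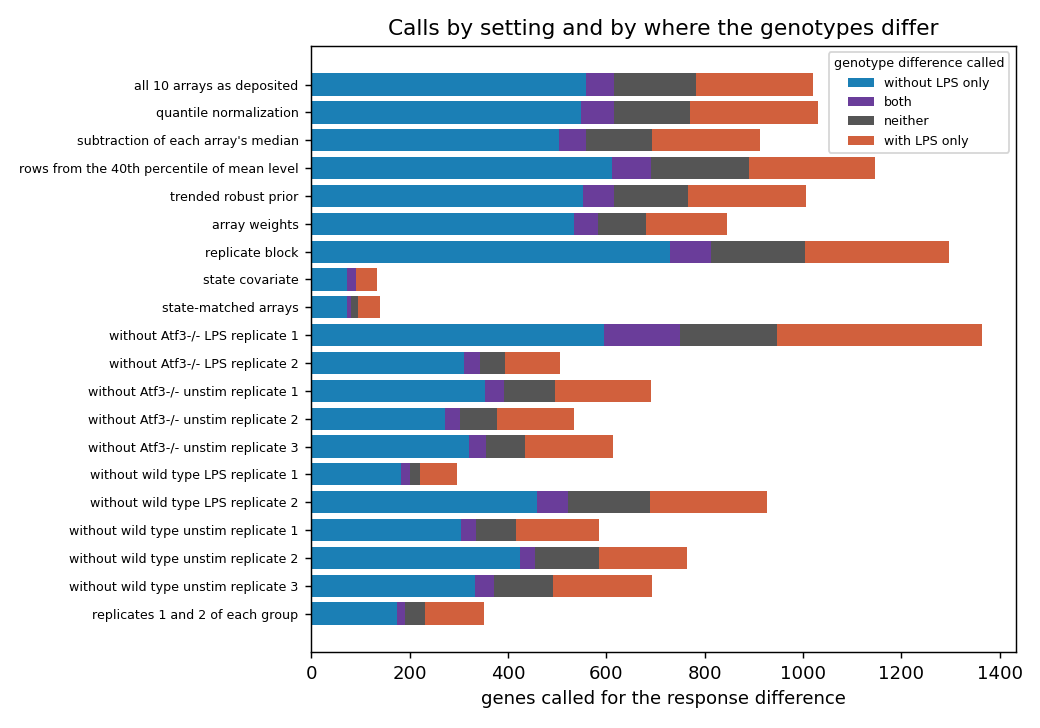
Number of genes called for the response difference in each setting (horizontal bars), divided by the state in which the genotype difference was called. In each setting the segment called without LPS only is longer than the segment called with LPS only, while the total runs from 133 genes in the state-adjusted fit to 1364 without Atf3-/- LPS replicate 1.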

How the data were processed

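Expression was measured on 10 arrays. The authors deposited log2 expression values for each probeset. Per the labels' series text, they had re-processed earlier arrays with CustomCDF probesets of version 13. The submitters' processing notes name affy 1.26.1 as a tool. How background, normalization between arrays and probe summary were handled is not given in the sources used here. No depth applies to arrays, and their number limits the precision.

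The fit, by limma 3.58.1 (lmFit, eBayes) under R 4.3.3, held all arrays and a mean for each group, with 6 residual and 5.50 prior degrees of freedom. Two-sided p-values were adjusted over 16856 genes by Benjamini-Hochberg, with a threshold of 0.05. Just inside it lay a response difference of -1.02 (adjusted p = 0.0500) and just outside one of 0.65 (adjusted p = 0.0501). On data simulated for the response difference over 16856 genes, of which 200 were changed, the fit recovered 6.97% of changes of 0.5, 61.7% of changes of 1 and 97.0% of changes of 2 on the log2 scale. The simulated noise was normal and independent between arrays. The changes were placed in Atf3-/- with LPS, and no other LPS, genotype or state effect was simulated. Recovery in the deposited arrays, which carry the state, can therefore be lower.

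The IDs shown are the 2 largest in each direction for the response difference, for the difference without LPS among genes called without LPS only, and for that with LPS among genes called with LPS only. The 2 latter choices, and the fit to replicates 1 and 2, were made after seeing the data. The members and lists were chosen with earlier results of these data known. The gene lists, cell type markers and promoters foreseen could not be used, since no IDs matched a symbol. The state of an array was set at the midpoint of ENSMUSG00000086503. Deviations of same-numbered arrays from their group means were mostly positively correlated, but unevenly (r from -0.0655 to 0.305). Among replicate 1 arrays all correlations were positive. The main fit did not take the replicate numbers as pairs, and a fit with the replicate block is given below.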

Additional observations from a re-analysis of the deposited data

Results flagged for a closer look

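In limma's test of the interaction of genotype and LPS, 1020 genes passed the threshold. Among the genes named above, the response difference (log2, Atf3-/- minus wild type) was 2.96 in ENSMUSG00000048806, 2.49 in ENSMUSG00000038508, 2.41 in ENSMUSG00000049723 and 1.83 in ENSMUSG00000022235. Below 0 it was -3.16 in ENSMUSG00000024675, -3.00 in ENSMUSG00000018500, -2.44 in ENSMUSG00000000204 and -2.34 in ENSMUSG00000050737. The groups of 2 and 3 arrays are too small for a test of single outlying arrays.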

How the results depend on the processing

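The fits on state-matched arrays compare the wild type arrays with the single Atf3-/- array per treatment in the same state. By construction they give the same response differences as the state covariate (the state-adjusted fit) and another error. The state covariate, the state-matched arrays and replicates 1 and 2 of each group called 133, 141 and 351 response differences, 36, 47 and 142 above 0 and 97, 94 and 209 below. They called 1055, 504 and 764 genotype differences without LPS, and 419 and 232 with LPS in the first 2, where array weights gave 415. In the same order, 73, 73 and 175 response differences were called without LPS only, 42, 46 and 119 with LPS only, 18, 9 and 15 in both and 0, 13 and 42 in neither, where array weights gave 98. The difference was larger without LPS in 78, 82 and 201 and larger with LPS in 55, 59 and 150. The lone arrays of a group were taken to vary like the other groups.

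Leaving out 1 array gave 296 to 1364 response differences (120 to 585 above 0, 176 to 779 below), 1199 to 2426 genotype differences without LPS and 239 to 975 with LPS. The classes then ran from 183 to 595 without LPS only, 74 to 417 with LPS only, 17 to 155 in both and 22 to 197 in neither. The larger difference was without LPS in 152 to 536 and with LPS in 144 to 828.

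With the replicate block 1296 genes were called, 730 without LPS only and 291 with LPS only. Of the 8 genes named, the response difference stayed past the threshold under all alternatives for ENSMUSG00000024675 (-3.50 to -2.82), ENSMUSG00000018500 (-3.59 to -2.34), ENSMUSG00000050737 (-2.70 to -1.98) and ENSMUSG00000022235, which the 40th percentile filter removed (1.49 to 2.07). The response difference missed the threshold in 7 of 19 alternatives for ENSMUSG00000049723, in 3 for ENSMUSG00000048806, in 2 for ENSMUSG00000000204 and in 1 for ENSMUSG00000038508, each time in the same direction. For ENSMUSG00000049723 these included array weights (2.30, adjusted p = 0.0527). The cause was not tested.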
